A study of Mus musculus with 8 samples.

Results

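The contactins and the contactin-associated proteins (Casprs) were examined in primary motor cortex (M1) of male Swiss Webster mice that had received lentivirus at P21 to P25. The 10 genes were taken by name, *Cntn1* to *Cntn6*, *Cntnap1*, *Cntnap2*, *Cntnap4* and *Cntnap5a*, each by the annotated transcript with the lowest Ensembl number, out of 38031 genes with counts. The virus carried a *Fezf2 shRNA* (4 libraries) or a *non-silencing shRNA* (4 libraries), and both groups also carried the mCherry reporter. The vector used the Synapsin I promoter, which is active in neurons, while the total RNA came from bulk tissue of all layers with meninges, dissected by mCherry at P49 to P53, so that fewer cells of a type and less RNA per cell cannot be told apart. Libraries are numbered 1 to 4 within each treatment, and every series of values below follows that order.

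Contactins are adhesion molecules of the immunoglobulin superfamily that are held on the outer membrane by a lipid anchor, and Casprs are transmembrane proteins related to neurexins. In myelinated axons, *Cntn1* and Caspr (the product of *Cntnap1*) form the axonal side of the paranodal junction beside the node of Ranvier, and *Cntn2* and Caspr2 (the product of *Cntnap2*) gather potassium channels in the juxtaparanode next to it. The other contactins are known from the wiring of neurons and from synapses, where they bind receptor phosphatases and proteins of the amyloid precursor family, and Caspr4 (the product of *Cntnap4*) is known from the synapses of interneurons.

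Start regions of *Cntnap2* and *Cntn1*, whose values depended on which start was used, are shown here, with *Cntn5*, the gene with the largest fold change of the 10. For *Cntn1* only the upstream start is shown. Each is 300 bases of RefSeq's mouse assembly GRCm38.p6 in the direction of transcription, 250 before and 50 after an annotated start. RefSeq windows were matched for 7 of the 10 genes and not for *Cntnap1*, *Cntnap4* and *Cntnap5a*. Capitals mark a CCAAT box (CCAAT, or ATTGG on the other strand) or a GC box (GGGCGG, or CCGCCC).
Cntn5, long form, chr9:10904726-10905025, minus strand: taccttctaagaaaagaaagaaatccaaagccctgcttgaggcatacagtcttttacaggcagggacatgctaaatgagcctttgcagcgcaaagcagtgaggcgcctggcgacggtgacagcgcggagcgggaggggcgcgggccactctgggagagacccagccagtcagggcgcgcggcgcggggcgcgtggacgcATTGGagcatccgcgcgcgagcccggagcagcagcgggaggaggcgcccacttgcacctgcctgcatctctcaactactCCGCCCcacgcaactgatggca
Cntnap2, long form, chr6:45059811-45060110, plus strand: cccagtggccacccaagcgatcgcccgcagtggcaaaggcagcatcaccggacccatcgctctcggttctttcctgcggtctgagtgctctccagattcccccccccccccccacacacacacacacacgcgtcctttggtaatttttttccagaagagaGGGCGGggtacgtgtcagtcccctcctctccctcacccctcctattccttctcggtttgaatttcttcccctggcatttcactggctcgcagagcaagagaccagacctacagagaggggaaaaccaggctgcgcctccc
Cntnap2, short 3′ form, chr6:47244146-47244445, plus strand: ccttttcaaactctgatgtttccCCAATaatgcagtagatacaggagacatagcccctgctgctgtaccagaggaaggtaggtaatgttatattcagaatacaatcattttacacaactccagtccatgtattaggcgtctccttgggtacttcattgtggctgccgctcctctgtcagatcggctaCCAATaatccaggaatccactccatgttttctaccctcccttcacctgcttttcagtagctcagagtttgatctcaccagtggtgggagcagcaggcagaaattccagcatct
Cntn1, upstream start, chr15:92050915-92051214, plus strand: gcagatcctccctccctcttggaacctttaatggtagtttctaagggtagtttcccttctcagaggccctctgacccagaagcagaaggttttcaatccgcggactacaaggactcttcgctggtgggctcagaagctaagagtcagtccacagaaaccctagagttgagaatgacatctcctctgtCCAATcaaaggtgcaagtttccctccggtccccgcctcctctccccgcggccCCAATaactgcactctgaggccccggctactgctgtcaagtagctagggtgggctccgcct
The *Cntn5* window held 26 CpG dinucleotides, against a median of 7 over the 32851 windows of all genes, 84.5% of which held as many or fewer. It lies at the start of the long form and not of the 758 kb interval that the rule counts. The long *Cntnap2* window held 14, the short *Cntnap2* window 3 and the *Cntn1* window 9. A CCAAT box was found in 37.4% of all windows and a GC box in 35.7%. A search for TATAAA (13.6% of all windows) and CACGTG (7.15%), on both strands as well, found neither in the 4 windows shown. A *Cntn1* window not shown (chr15:92127878-92128177, 5 CpG) did hold TATAAA, on the other strand. Another *Cntn1* window not shown (chr15:92161107-92161406, 4 CpG) held neither.

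Whole genomic intervals were counted, introns included, so that most bases behind each value are intronic in the longer genes. The 8 libraries held 54684016 to 58003814 counts over the genes, and the common biological coefficient of variation was 11.7%, so that the spread between libraries and not the counting error limited these values. *Fezf2*, the gene that the shRNA targets, had 687.5, 767, 734.7 and 702.2 normalized counts (counts scaled to a common library size) with *non-silencing shRNA* and 620.6, 582.9, 568.3 and 592.5 with *Fezf2 shRNA*. All *Fezf2 shRNA* libraries were below all controls, and the log2 fold change was -0.29 (SE, the standard error of the fit, 0.0760; edgeR quasi-likelihood test with Benjamini-Hochberg adjustment, adjusted p = 0.0765). In DESeq2, where the log2 fold change was -0.25 with and -0.28 without its prior, the gene passed the threshold used below (adjusted p = 0.0256 in both). So did 7.37% of all genes tested with the prior and 7.55% without. The 19-nt sense sequence of the shRNA, gggaactacaagaatcaca, matched *Fezf2* over all 19 nt. Its longest match to any transcript of the 10 genes was 9 nt, in either orientation.

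*Cntn5* and *Cntnap5a* rose with *Fezf2 shRNA*, and no gene of the 10 fell. A gene counted as changed when its adjusted p was at most 0.05 and its log2 fold change at least 0.2 in size. By this rule 2.19% of the 9959 genes tested changed (2.06% rose), against 2 of the 10 genes here, all of which passed the filter on low counts. In *Cntn3*, *Cntn5* and *Cntnap5a*, all 4 *Fezf2 shRNA* libraries lay above all 4 controls, as was the case for 7.41% of the 9959 genes, and none of the 10 had all 4 below (4.41% of the 9959). The same 3 genes had an unadjusted p under 0.05, against 19.7% of the genes tested. With the widest interval of each gene, 2 of the 10 changed again, against 2.27% of 10134. The 10 genes had log2 fold changes with a median of 0.11, against -0.03 for the whole set.

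**Figure D1:**
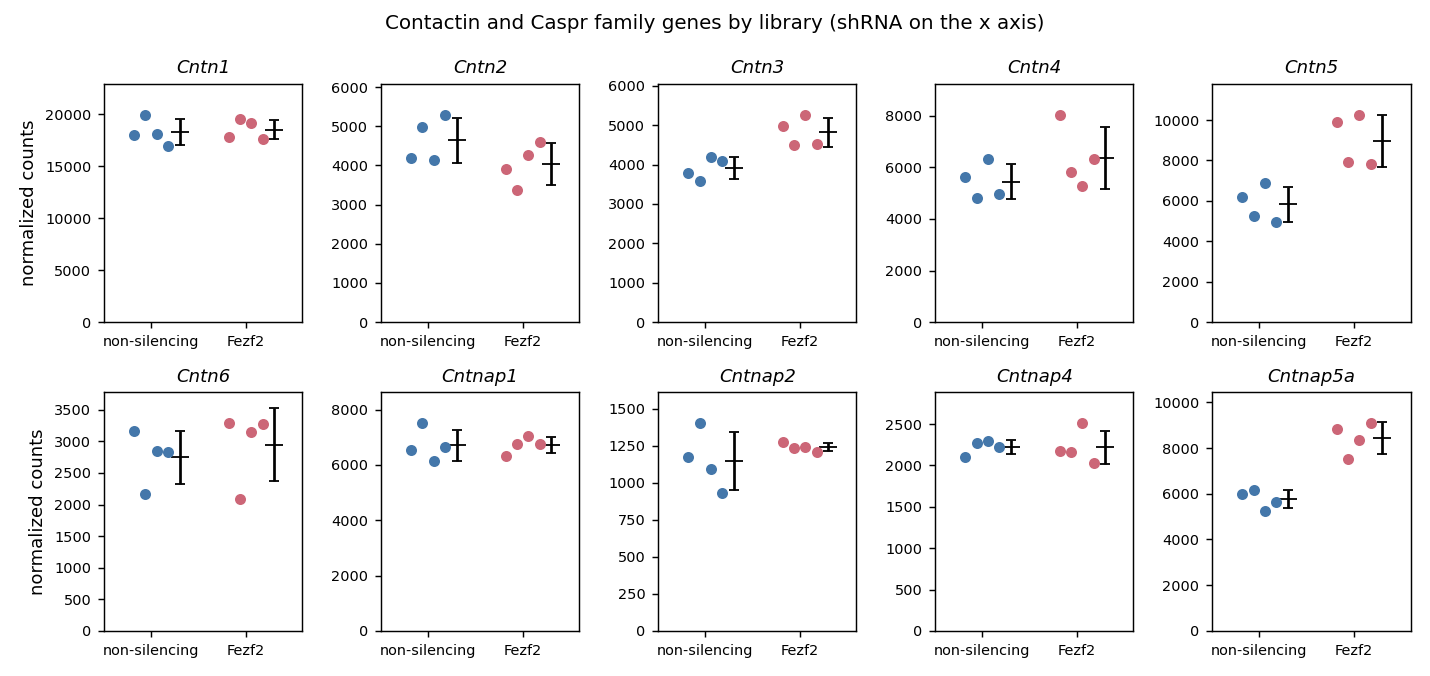
Normalized counts (y axis, from 0, a separate scale for each gene) of the 10 genes in each of the 8 libraries, with *non-silencing shRNA* in blue and *Fezf2 shRNA* in red, libraries 1 to 4 from left to right. Black marks give the mean and SD (n = 4); the treatments do not overlap in *Cntn3*, *Cntn5* and *Cntnap5a* and overlap in the other genes.

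*Cntn5*, a contactin known from the auditory pathway and from neurite growth, was counted over 758 kb on chromosome 9 (9661363 to 10419090, minus strand), of which 0.435% is exonic. Its normalized counts were 6185.8, 5258.3, 6868.1 and 4972.9 with *non-silencing shRNA* (5821 ± 869, SD, n = 4) and 9902.9, 7925.3, 10263.9 and 7814.6 with *Fezf2 shRNA* (8977 ± 1287, SD, n = 4). The lowest *Fezf2 shRNA* library, number 4, was above the highest control, number 3. The counts of *Cntn5* were 1.54-fold higher, a log2 fold change of 0.62 (SE 0.122; edgeR, adjusted p = 0.0308). The call was lost when control 1 or 4 or *Fezf2 shRNA* library 1, 3 or 4 was left out (adjusted p 0.0595 to 0.0971), although the log2 fold change stayed between 0.56 and 0.72.

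*Cntnap5a*, a Caspr of the central nervous system, was counted over 903 kb on chromosome 1 (115684756 to 116587323, plus strand). The controls held 6008.8, 6151.2, 5262.9 and 5636.3 normalized counts (5765 ± 399, SD, n = 4). With *Fezf2 shRNA* the values were 8821.1, 7522.3, 8352.0 and 9075.2 (8443 ± 683, SD, n = 4). The 2 ranges were well apart, and the gene stood 11th by p among the 9959 genes tested. Counts over this interval, of which 1.21% is exonic, were 1.46-fold higher, a log2 fold change of 0.55 (SE 0.0752; edgeR, adjusted p = 0.0157). Without control 1 or 4 or *Fezf2 shRNA* library 1 or 3, the adjusted p was 0.0530 to 0.0828, at log2 fold changes of 0.53 to 0.57. Genes annotated inside *Cntn5* and *Cntnap5a* held at most 0.0809% and 0.00529% of their counts.

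*Cntn3*, a contactin of neurons that binds the receptor phosphatase encoded by *Ptprg*, was the third gene without overlap. On chromosome 6 (102163306 to 102464667, minus strand) it had 3792.7, 3576.8, 4182.0 and 4090.8 normalized counts in the controls and 4989.3, 4502.3, 5264.8 and 4522.3 with *Fezf2 shRNA*. The means were 3911 ± 278 and 4820 ± 372 (SD, n = 4 each). The log2 fold change of 0.30 (SE 0.0742) did not pass the test in edgeR (adjusted p = 0.0621) and passed it in DESeq2 (adjusted p = 0.0053). In DESeq2, 7.37% of the 9959 genes passed with its prior and 7.55% without, against 2.19% in edgeR. The exact two-sided permutation test gave p = 0.0286 for *Cntn3*, *Cntn5* and *Cntnap5a*, the smallest value that 4 against 4 libraries allow. A lack of overlap fixes this p in advance, so it adds nothing to it. In either direction, 11.8% of the 9959 genes tested had no overlap.

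The other genes of the list overlapped between treatments. *Cntn4*, which binds the amyloid precursor protein, held 4831.0 to 6323.2 normalized counts in the controls and 5269.8 to 8044.1 with *Fezf2 shRNA*. Its log2 fold change was 0.23 (SE 0.128; edgeR, adjusted p = 0.340), and the highest value came from *Fezf2 shRNA* library 1. *Cntn6*, a contactin of developing motor and cerebellar circuits, held 2167.7 to 3161.3 and 2094.4 to 3283.8, a log2 fold change of 0.10 (SE 0.150; adjusted p = 0.733). Both its lowest values came from the libraries numbered 2, one of each treatment. *Cntn3*, *Cntn6* and *Cntn4* lie in this order on chromosome 6, with 1.92 Mb and 1 protein-coding gene between the first pair and 0.814 Mb with no protein-coding gene between the second.

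*Cntn1* and *Cntnap1*, which encode the axonal proteins of the paranodal junction, showed differences near 0. *Cntn1* had 16936.0 to 19930.8 normalized counts in the controls and 17641.7 to 19510.8 with *Fezf2 shRNA* (log2 fold change 0.02, SE 0.0670; edgeR, adjusted p = 0.877). For *Cntnap1* the ranges were 6147.1 to 7495.2 and 6316.4 to 7032.4 (log2 fold change 0.00, SE 0.0695; adjusted p = 0.997). The signs of both differences changed when library totals were used for scaling (-0.0029 and -0.0248). *Cntnap4* likewise had a log2 fold change of -0.00 (SE 0.0736; adjusted p = 0.989), at 2098.0 to 2293.6 normalized counts in the controls and 2025.7 to 2508.0 with *Fezf2 shRNA*, and its sign changed with the size factors of DESeq2 (0.0039).

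*Cntn2*, the contactin of the juxtaparanode, which neurons and oligodendrocytes make, was the gene with the lowest log2 fold change of the 10. It had 4182.2, 4969.3, 4126.0 and 5292.9 normalized counts in the controls and 3917.6, 3365.7, 4266.6 and 4606.0 with *Fezf2 shRNA*. The log2 fold change of -0.20 (SE 0.109) did not pass the test (edgeR, adjusted p = 0.320), and the ranges overlapped. Its highest value was in control 4 and its lowest in *Fezf2 shRNA* library 2. The same libraries held the highest and the lowest sum of 7 oligodendrocyte markers (*Mbp*, *Mog*, *Mag*, *Mobp*, *Cnp*, *Cldn11* and *Ugt8a*), 71707 and 31281 normalized counts. These sums ranged from 37654 to 71707 in the controls and from 31281 to 50852 with *Fezf2 shRNA*. The markers had a median log2 fold change of -0.52 and none passed the test in edgeR, although 5 of 7 had an unadjusted p under 0.05. None was at 0 in any library, and their part in the *Cntn2* values was not tested.

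**Figure D2:**
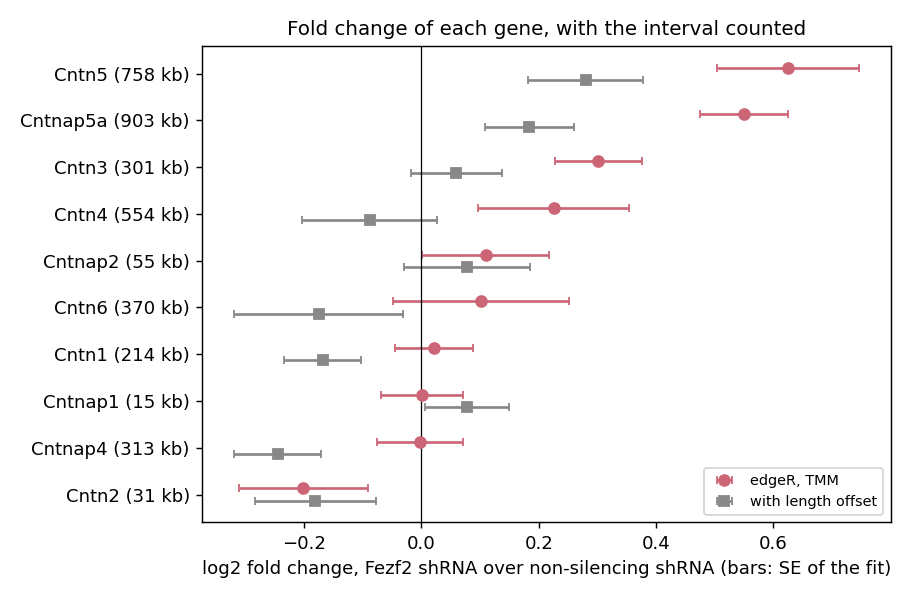
Log2 fold change of each gene, *Fezf2 shRNA* over *non-silencing shRNA* (x axis), from edgeR with TMM normalization (red circles) and with an offset for interval length (grey squares), with SE as bars and the length of the interval counted beside each name. *Cntn5* is highest by both, at 0.62 and 0.28, and the values of *Cntn1*, *Cntn4* and *Cntn6* lie below 0 with the offset.

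Fold changes in these libraries differed with the length of the interval counted. Of the genes with an interval over 200 kb, 17.9% rose (132 of 737), against 2.22% of those from 50 to 200 kb and 0.227% of those under 50 kb. In the same order the median log2 fold changes were 0.25, 0.07 and -0.08. By the interval used, 7 of the 10 genes here were over 200 kb. Of those 7, 2 rose, and their log2 fold changes had a median of 0.23, near the 0.25 of all long genes. *Cntn1*, *Cntn6* and *Cntnap4* were below 0.15, the lower quartile of the long genes.

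When a smooth trend of each library with interval length was removed as an offset, 0.0201% of all genes and none of the 10 passed the test in edgeR. *Cntn5* then had a log2 fold change of 0.28 (adjusted p = 0.339) and *Cntnap5a* of 0.18 (adjusted p = 0.414). *Cntn3* came to 0.06 (adjusted p = 0.824). *Cntn4* came to -0.09, *Cntn6* and *Cntn1* to -0.17 each and *Cntnap4* to -0.24 (adjusted p = 0.279). The median over the 10 genes was -0.01 with the offset. The cause of the trend with length was not tested.

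**Figure D3:**
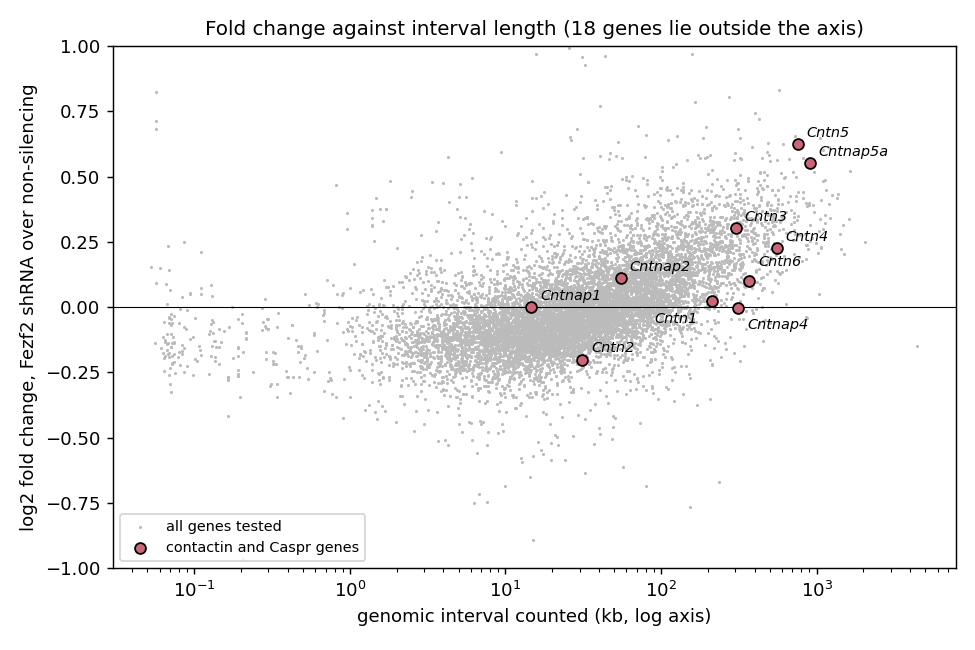
Log2 fold change, *Fezf2 shRNA* over *non-silencing shRNA* (y axis), against the length of the interval counted (x axis, kb, log scale) for the 9959 genes tested (grey) and the 10 contactin and Caspr genes (red); 18 genes lie outside the y axis. *Cntn5* (0.62) and *Cntnap5a* (0.55) lie above 0.345, the upper quartile of the genes over 200 kb, and *Cntn1* and *Cntnap4* lie at 0.02 and -0.00.

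Several of the genes have more than 1 annotated interval, which show how the counts were spread along a gene. The intervals of 1 gene share reads and are not separate measurements. The table held 40 intervals of the 10 genes, of which 35 passed the filter and 7 rose, against 5.38% of all 32204 intervals tested (5.08% rose). The 7 were all 5 intervals of *Cntn5* and the only intervals of *Cntn3* (adjusted p = 0.0429) and *Cntnap5a* (adjusted p = 0.0071). In this test, fitted over all intervals, *Cntn3* passed the threshold that it missed among the genes. Its counts were the same in both fits, and its unadjusted p in edgeR was 0.00192 among intervals and 0.00197 among genes. The adjustment was over 32204 intervals, which share reads within a gene, so the pass is no separate support for *Cntn3*.

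In *Cntn5* the difference was present along the whole gene. The long forms span 1244 kb from the start shown above, and there the log2 fold change was 0.66 (SE 0.103; edgeR, adjusted p = 0.0120). An annotated retained-intron transcript of 264 kb at the 5′ end, with 0.152% exonic bases, held 1917.0, 1931.4, 2254.3 and 2408.2 normalized counts in the controls. With *Fezf2 shRNA* it held 3713.7, 3214.9, 4283.5 and 3507.9. No values overlapped, and its log2 fold change was 0.79 (SE 0.102; adjusted p = 0.0059). A pair of *Cntn5* transcripts with the same ends, but with 23 and 19 exons, had equal counts in every library, since the whole interval was counted for each.

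*Cntnap2*, which encodes the Caspr of the juxtaparanode, gave different values by the interval used. By the rule it stands on a short 3′ form of 4 exons, 55.1 kb long (chromosome 6, 47244453 to 47299570, plus strand). This form held 1174.4, 1400.8, 1094.7 and 928.8 normalized counts in the controls and 1274.6, 1237.1, 1239.1 and 1211.5 with *Fezf2 shRNA*. The treatments overlapped, the controls varied more (SD 196 against 25.9), and the log2 fold change was 0.11 (SE 0.108; edgeR, adjusted p = 0.589). The long form of 24 exons covers 2244 kb and held 26292.4, 28569.8, 24773.5 and 21542.3 in the controls and 38807.4, 30567.6, 29313.8 and 34649.0 with *Fezf2 shRNA*. All *Fezf2 shRNA* libraries were above all controls there, with a log2 fold change of 0.40 that did not pass the test (adjusted p = 0.0786 among genes, 0.0542 among intervals). Outside the short form, the mean log2 ratio of the long interval (the difference between the treatments in mean log2 normalized counts) was 0.41. This part covers 2189 kb and held most counts of the long form (means of 24145 of 25295 in the controls and 32094 of 33334 with *Fezf2 shRNA*). It is therefore no separate observation.

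*Cntn1* gave different values in its parts. From the upstream start shown above, the whole gene covers 291 kb and had a log2 fold change of 0.07 (SE 0.0673; edgeR, adjusted p = 0.552). The first 77.0 kb, upstream of the interval used by the rule, held 2251.5, 2303.0, 2418.5 and 1932.6 normalized counts in the controls and 2964.9, 2666.2, 3166.9 and 3219.8 with *Fezf2 shRNA*. These counts did not overlap, at a mean log2 ratio of 0.43. In the last 92.5 kb the mean log2 ratio was -0.03, with 11143.2 to 13097.3 normalized counts in the controls and 10967.6 to 12901.0 with *Fezf2 shRNA*, which overlapped. The difference between the parts of the gene was not tested.

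Among the 12 intervals of *Cntn4*, mean log2 ratios ran from 0.37 in the first 163 kb to -0.24 in an interval of 0.973 kb near the 3′ end, the only one of the 40 with more exonic than intronic bases (55.4%). The latter held 175.1 to 221.3 normalized counts in the controls and 150.3 to 198.0 with *Fezf2 shRNA* and was below the filter. All 12 overlapped between treatments. In *Cntnap4* the 6 intervals had mean log2 ratios of -0.16 to 0.03, and in *Cntn6* the 5 intervals had 0.06 to 0.15, all with overlap.

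**Figure D4:**
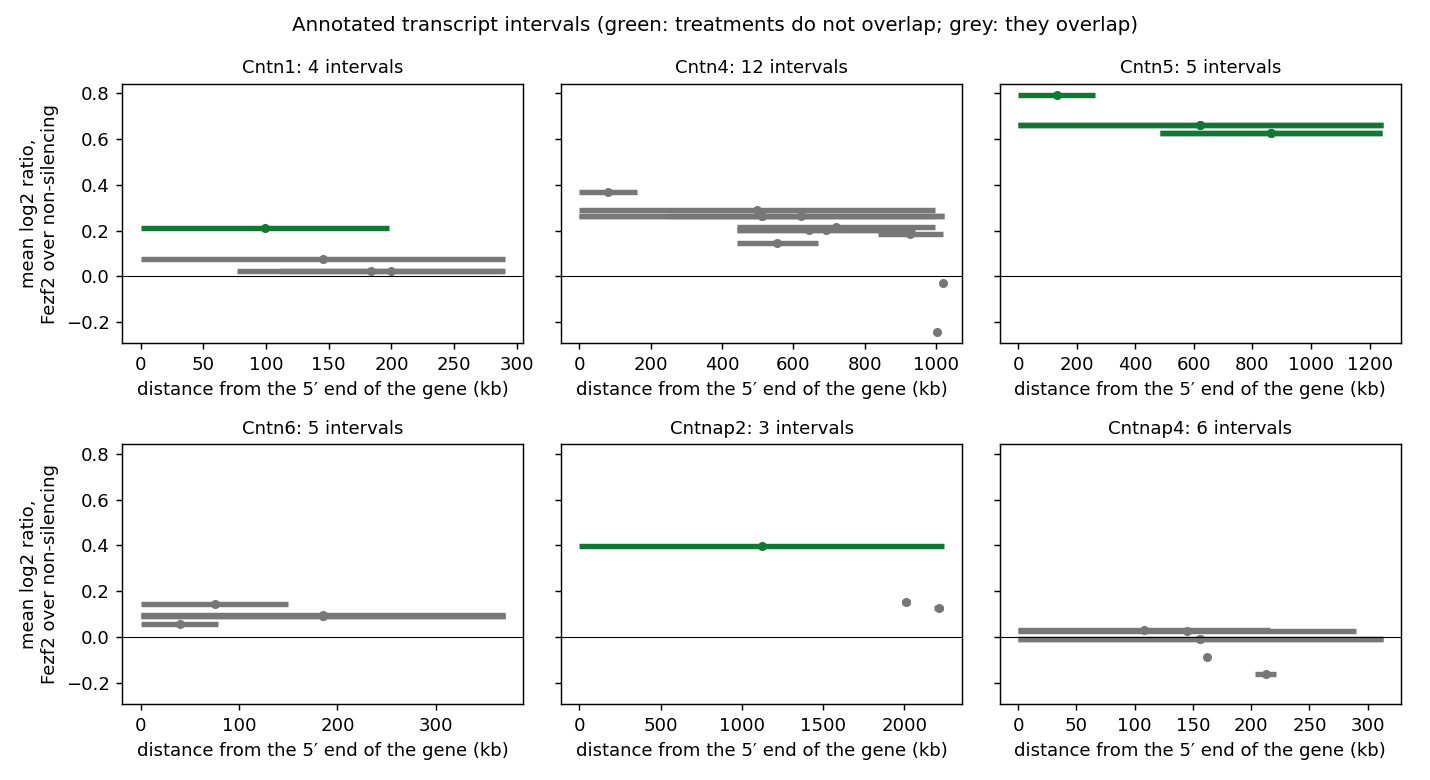
Mean log2 ratio of normalized counts, *Fezf2 shRNA* over *non-silencing shRNA* (y axis), of each annotated transcript interval of *Cntn1*, *Cntn4*, *Cntn5*, *Cntn6*, *Cntnap2* and *Cntnap4*, drawn as a bar from its first to its last base (x axis, distance from the 5′ end of the gene in kb) with a point at its middle. Among these 6 genes, the green intervals do not overlap between treatments: all of *Cntn5* (0.63 to 0.79), the 5′ interval of *Cntn1* (0.21) and the long form of *Cntnap2* (0.40). Those of *Cntn1* and *Cntnap2* did not pass the test (edgeR, adjusted p = 0.0854 and 0.0542 among intervals). The share without overlap was not counted over all intervals. Over the 9959 genes tested, 7.41% had all *Fezf2 shRNA* libraries above all controls.

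Levels between genes were compared as normalized counts per kb of interval, a scale on which intronic reads count as well and which is no measure of mRNA alone. The exonic share of the interval was 37.0% for *Cntnap1*, 24.7% for *Cntn2*, 4.33% for *Cntn1* and 0.435% to 2.86% for the other genes. Its part in the order of levels was not tested. In the controls the order of medians was *Cntnap1* (450), *Cntn2* (147), *Cntn1* (84.3), *Cntnap2* by its short form (20.6), *Cntn3* (13.1), *Cntn4* (9.56), *Cntn6* (7.66), *Cntn5* (7.55), *Cntnap4* (7.19) and *Cntnap5a* (6.45) per kb. From *Cntnap1* to *Cntn6*, no gene overlapped its neighbour in this order, library by library. By its long form *Cntnap2* had a median of 11.4 per kb in the controls (9.60 to 12.7), which is below the median of *Cntn3* and overlaps both *Cntn3* and *Cntn4*. The last 4 genes overlapped their neighbours. With *Fezf2 shRNA*, *Cntnap5a* (9.51 per kb) stood above *Cntn6* (8.67 per kb) and *Cntnap4* (6.94 per kb), and *Cntn5* (11.8 per kb) above *Cntn4* (10.9 per kb). In those libraries *Cntnap5a*, at 8.33 to 10.1 per kb, did not overlap *Cntnap4*, at 6.48 to 8.02 per kb, whereas it overlapped *Cntn6*, and *Cntn5* overlapped *Cntn4*.

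Of the Caspr genes outside the list, *Cntnap5b* rose, at a log2 fold change of 0.33 (SE 0.0692; edgeR, adjusted p = 0.0407), with 2753.0 to 3032.6 normalized counts in the controls and 3278.3 to 3906.3 with *Fezf2 shRNA*. *Cntnap5c* had a log2 fold change of 0.28 (adjusted p = 0.214) and *Cntnap3* of 0.13 (adjusted p = 0.528), both with overlap. With the length offset, *Cntnap5b* came to -0.02. *Cntnap5a* to *Cntnap5c* are close relatives, and the treatment of reads with more than 1 alignment is not given in the sources used here.

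The partners of these proteins were taken as 38 genes for ligands and receptors of contactins, for the paranode and juxtaparanode, and for the node. Of these 36 were tested, 3 rose and none fell in edgeR (2.19% of all genes changed), and 9 had an unadjusted p under 0.05, as did 19.7% of all genes tested. Their median log2 fold change was 0.02. *Ptprg*, the receptor phosphatase that binds *Cntn3* to *Cntn6*, was the only one of 13 ligands and receptors to rise. It had 8544.5, 10059.4, 9253.2 and 7955.9 normalized counts in the controls and 11441.9, 11521.1, 12479.3 and 10916.0 with *Fezf2 shRNA*, without overlap (log2 fold change 0.37, SE 0.0785; edgeR, adjusted p = 0.0393). The related phosphatase gene *Ptprz1*, whose product binds *Cntn1*, had 0.10 (adjusted p = 0.414).

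Of the 14 genes of the paranode and juxtaparanode, *Dlg2*, which encodes a scaffold protein found with potassium channels, rose (log2 fold change 0.42, SE 0.0886; edgeR, adjusted p = 0.0396). Its controls held 50591.2 to 64559.5 normalized counts and its *Fezf2 shRNA* libraries 70239.4 to 83456.9. Of the 9 node genes tested, *Kcnq3*, a potassium channel subunit, rose (log2 fold change 0.49, SE 0.0964; adjusted p = 0.0315), from 15139.6 to 19426.9 in the controls to 21686.6 to 26878.1 with *Fezf2 shRNA*. The 3 genes that rose cover 689 kb, 1356 kb and 300 kb, and with the length offset their log2 fold changes were 0.04, 0.02 and 0.25, none past the threshold. None of the 3 passed it when the replicate number was used as a block, or when control 1, 3 or 4 or *Fezf2 shRNA* library 1, 3 or 4 was left out. Of the partners named whatever their values, *Nfasc*, the glial and nodal partner of *Cntn1*, had a log2 fold change of 0.06 (adjusted p = 0.726) and *Nrcam* 0.13 (adjusted p = 0.279). *Epb41l3*, which links Caspr proteins to the cytoskeleton, had 0.02 (adjusted p = 0.876), and *Kcna2*, a potassium channel of the juxtaparanode, -0.01 (adjusted p = 0.969).

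**Figure D5:**
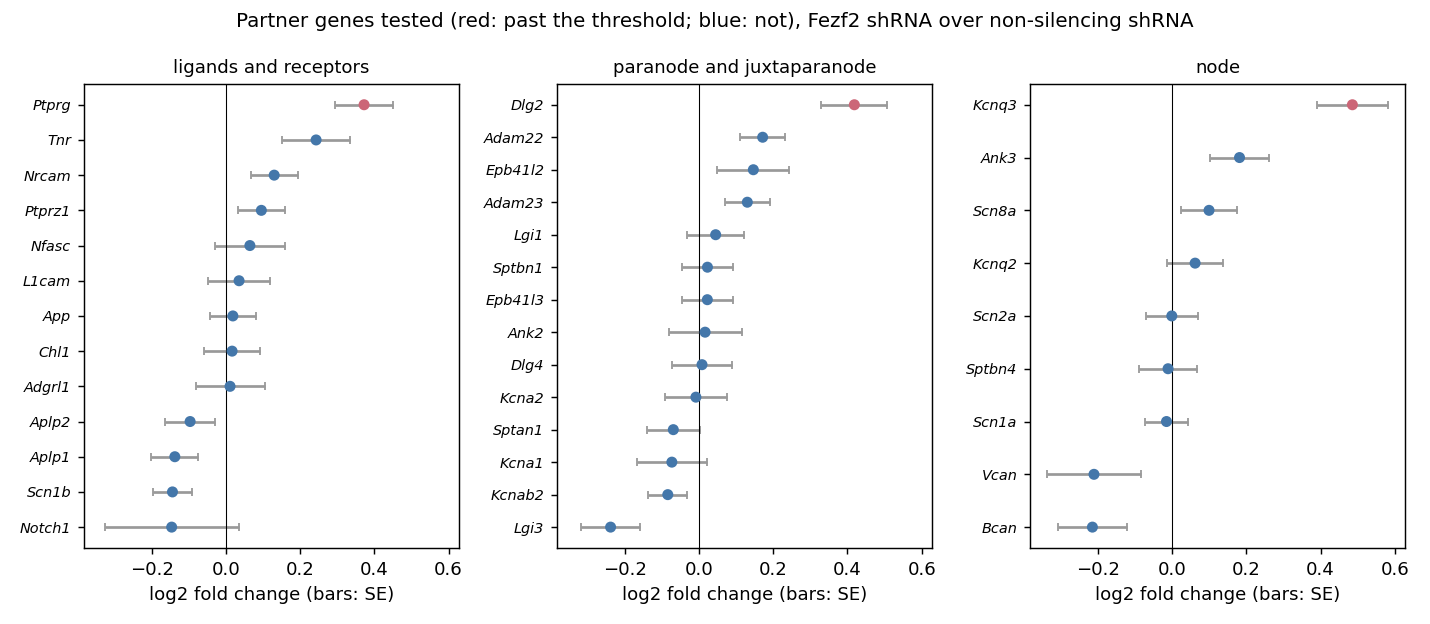
Log2 fold change, *Fezf2 shRNA* over *non-silencing shRNA* (x axis, bars are SE of the fit), of the 36 partner genes tested, in 3 panels by role. *Ptprg* (0.37), *Dlg2* (0.42) and *Kcnq3* (0.49), in red, passed the threshold, and the genes in blue did not.

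Markers of other cells in the tissue were read beside these values. The 6 markers of cortical excitatory neurons summed to 89042 to 101317 normalized counts in the controls and 90735 to 104772 with *Fezf2 shRNA*, and none passed the test. Those of interneurons, where *Cntnap4* is known to act, summed to 16171 to 18921 and 15502 to 17000, and none passed the test. In edgeR, 2 of the 6 excitatory markers and 2 of the 6 interneuron markers had an unadjusted p under 0.05. Of all genes tested, 19.7% did. The striatal markers *Drd2* and *Adora2a* stayed between 14.6 and 69.2 normalized counts in every library, and none of the 3 striatal markers tested passed the test. No marker tested of oligodendrocyte precursors (4), astrocytes (6), microglia (5) or endothelial cells (1) passed it, and the precursor list had a median log2 fold change of -0.20. An unadjusted p under 0.05 was found for 2 of the 4 precursor markers, and for 0 of the striatal, astrocyte, microglia and endothelial markers. The part of any of these cells in the results for *Cntn5*, *Cntnap5a* and *Cntn3* was not tested.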

How the data were processed

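The deposited file of raw counts held whole numbers per Ensembl transcript, which per the labels and the study's methods the authors made by mapping paired reads to mm10 (GRCm38) with TopHat2 2.1.1 and counting with bedtools 2.26.0 multiCov over transcript intervals from the UCSC browser. Counts cover whole intervals with introns, transcripts of a gene share reads, and the strand setting is not given in the sources used here. A second deposited table, with only the authors' own DESeq2 comparison of the treatments (means, fold changes and p-values), was not used.

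Transcripts were joined to genes with GENCODE M21 on GRCm38 (91320 of 94647 found; the rest held 1.82% of counts). Groups came from the labels, which give 4 animals per treatment, and each library was taken as 1 animal. The filter of the study (over 8 CPM in 4 or more libraries) left 9959 genes, tested with edgeR 4.0.16 (TMM, quasi-likelihood) in R 4.3.3, with no covariate. The threshold was that of the study, an adjusted p of at most 0.05 and a log2 fold change of at least 0.2 in size. For normalized counts, each count was divided by its library's effective size and multiplied by the mean of these sizes. The 40 intervals of the genes were tested within a fit of all intervals. The length offset was a loess (span 0.3) per library. Alternatives were other scalings, filters, DESeq2 1.42.0, the adjusted p alone, the replicate block, the widest interval and each library left out. Steps were tested on simulated data. Figures used Python 3.11.15 and matplotlib 3.10.9. The members, gene lists and partners were chosen with earlier results of these data known. Named were the 10 genes, *Fezf2*, 3 further Casprs, partners past the threshold (at most 8), and *Nfasc*, *Nrcam*, *Epb41l3*, *Kcna2*, *Ptprz1* and *Ptprg* whatever their values. Marker genes were named as lists, 1 marker of oligodendrocytes is not reported here, and *Drd2* and *Adora2a* were singled out after their values were seen.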

Additional observations from a re-analysis of the deposited data

Results flagged for a closer look

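One value stood far from the others of its treatment. *Cntn6* had 2094.4 normalized counts in *Fezf2 shRNA* library 2, against 3154.9 to 3283.8 in the other *Fezf2 shRNA* libraries, a gap to the nearest of 0.892 of the range, above Dixon's 95% critical value for 4 samples. This was 1 of 22 groups examined, and chance flags about 1 in 20 groups. The control library of the same number was also the lowest of its treatment for *Cntn6*, at 2167.7. Without *Fezf2 shRNA* library 2, the log2 fold change of *Cntn6* was 0.23, and without control 2 it was 0.00; neither passed the test in edgeR.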

How the results depend on the processing

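With the length offset, alone and with the replicate block, 0 of the 10 genes, 0 partners and 2 of all genes passed, and the median of the 10 was -0.0141 and -0.0148. With a filter of 1 CPM, 0 partners and 111 genes passed, and with no filter 1 partner and 85 genes. DESeq2 called 734 genes with its prior and 752 without, and in both 3 of the 10, *Cntn3* being added. The widest interval moved the median of the 10 to 0.19. Leaving out 1 library gave 0 to 2 of the 10 genes, 0 to 3 partners, 0 to 401 of all genes, 2 to 8 intervals and medians of 0.0694 to 0.173. Of all genes, 0 passed without control 1 (1563 at an unadjusted p under 0.05), where DESeq2 was not run. Signs turned with library totals for *Cntn1* (-0.0029) and *Cntnap1* (-0.0248), and with the offset, alone and with the block, for *Cntn1* (-0.17 and -0.17), *Cntn4* (-0.0882 and -0.0938) and *Cntn6* (-0.17 and -0.17). *Cntnap4* turned positive with the size factors of DESeq2 (0.0039), with no filter (0.0065) and in DESeq2 with and without prior (0.0036 and 0.0040). Leaving out 1 library gave -0.0096 to 0.0670 for *Cntn1*, -0.0303 to 0.0576 for *Cntnap1* and -0.0579 to 0.0387 for *Cntnap4*. Of 200 values of the 10 genes under alternatives, 160 kept direction and side of the threshold. These include the adjusted p alone, without the fold limit, which used the main fit and so could turn no sign. They also include genes that were not called in the main fit. Of 20 alternatives each, *Cntn5* was called in 13 and *Cntnap5a* in 14. The cause of the changes was not tested.

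With the replicate number as a block, 2 of the 10 genes, 7 intervals (an alternative chosen after seeing the data), 0 partners and 89 of all genes passed, against 2, 7, 3 and 218 without it. Libraries of the same number correlated at 0.307, 0.0931, -0.133 and 0.167 in their deviations from the group means. Controls 1 and 4 correlated best with their own number, and controls 2 and 3 with another. The labels do not say what the number marks, and whether it marks a shared batch was not tested. The block changed no call among the 10 genes, but it moved their values. The SE fell from 0.122 to 0.0542 for *Cntn5* and from 0.150 to 0.0645 for *Cntn6*. In edgeR the adjusted p went from 0.0308 to 0.0135 for *Cntn5* and from 0.0157 to 0.0427 for *Cntnap5a*. Depth did not limit the 10 genes, the lowest of which had 16.5 CPM.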
